A study of Mus musculus with 6 samples.

Results

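Solitary shared sites were places in the mouse liver genome where tagged thyroid hormone receptor β1 (TRβ1) was called both without and with injected hormone and where no other TRβ1 site lay within 50 kb. They were found by merging all TRb PTU and TRb T3 peaks on chromosomes 1 to 19 that shared at least 1 bp into union sites, and by keeping the sites that held a peak of each list and had no other union site within 50 kb, edge to edge, on either side. This gave 746 sites of 68532 union sites (1.09%), and 2.72% of the 27402 sites called in both lists. The sites were thus chosen by their calls in both lists and by their distance to other calls, so shares that rest on those are a description and carry no test. A peak list holds no sequence, and with no mm9 genome or annotation used here the sites are given by mm9 position alone.

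TRβ1 is a nuclear receptor and the main receptor for thyroid hormone in hepatocytes. It sits on DNA, often as a heterodimer with the retinoid X receptor, also when no hormone is bound. The unliganded receptor is known to recruit the corepressors NCoR and SMRT, and binding of triiodothyronine (T3) is known to exchange them for coactivators, so that a site occupied in both states can serve opposite effects on transcription. Liver TRβ1 controls genes of lipid, cholesterol and glucose metabolism. Many transcription factor sites in liver lie close together in enhancers, whereas a solitary site has no such neighbour of the same factor.

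The samples came from livers of 9 to 10 week old mice heterozygous for expression of BirA, a ligase that puts biotin on a tagged protein. All mice ate a diet with propylthiouracil (PTU), which blocks thyroid hormone synthesis, for 3 weeks, received an adenovirus through a tail vein, and were then injected intraperitoneally for 4 days. In the TRb PTU group the virus encoded GFP and biotinylated TRβ1 and the injection was saline. The TRb T3 group had the same virus and T3, and the GFP PTU control had a virus with GFP alone and saline. Chromatin bound to biotinylated protein was captured on streptavidin agarose and sequenced (ChIP-seq), with 1 library per condition. The receptor came from a virus and was not the liver's own TRβ1, and the sources used here name neither the promoter that drove it nor the number of mice per library.

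The deposited lists held 51992 peaks for TRb PTU, 46092 for TRb T3 and 107 for GFP PTU. Each peak carries a score from the authors' peak caller. Which statistic the score is cannot be read from the files, so scores were turned into percentiles of the peak's own list, where 100 is the strongest. The read depth behind the lists is unknown, and a peak missing from a list cannot be told apart from a peak below that library's detection limit. In bulk liver, a low score from few cells with the site bound and one from weak binding in every cell cannot be told apart either. Intervals are exact 95% binomial intervals over sites. They treat sites as independent and cover counting error only. Successive sites were in part called alike, so the intervals may be too narrow. No test between the conditions was possible with 1 library each.

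A smaller share of solitary sites than of sites with near neighbours was called in both states. Of all 2794 solitary sites, 746 were called in both lists (26.7%, interval 25.1 to 28.4%), 964 in TRb PTU alone (34.5%, interval 32.7 to 36.3%) and 1084 in TRb T3 alone (38.8%, interval 37.0 to 40.6%). Over all union sites the share called in both lists was 40.0%, and among the 65738 sites with a neighbour within 50 kb it was 40.5% (interval 40.2 to 40.9%). The share called in TRb PTU alone was 34.5% in those sites as well, so that the lower share in both lists stood against a higher share in TRb T3 alone, which was 24.9% (interval 24.6 to 25.3%) in sites with neighbours. The order of the single-list classes turned under 2 alternatives. With a limit of 25 kb, 2223 solitary sites were in TRb PTU alone and 2000 in TRb T3 alone, and with only the peaks scoring no lower than their list's median the numbers were 1143 and 1025.

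The shared fraction was lower the larger the gap, already far below the 50 kb limit. Sites with a neighbour within 1 kb were called in both lists in 43.8% of cases (interval 43.2 to 44.4%). The share was 36.1% (interval 35.0 to 37.2%) for gaps of 5 to 10 kb and 30.9% (interval 29.3 to 32.6%) for gaps of 25 to 50 kb. Beyond the limit it was 28.1% (interval 25.9 to 30.4%) for 50 to 100 kb and 24.2% (interval 20.5 to 28.3%) for gaps over 200 kb. The share called in TRb T3 alone went the other way, from 22.8% within 1 kb to 44.8% (interval 40.4 to 49.3%) over 200 kb. Sites in TRb PTU alone were most frequent in between, at 40.0% for gaps of 25 to 50 kb.

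**Figure D1:**
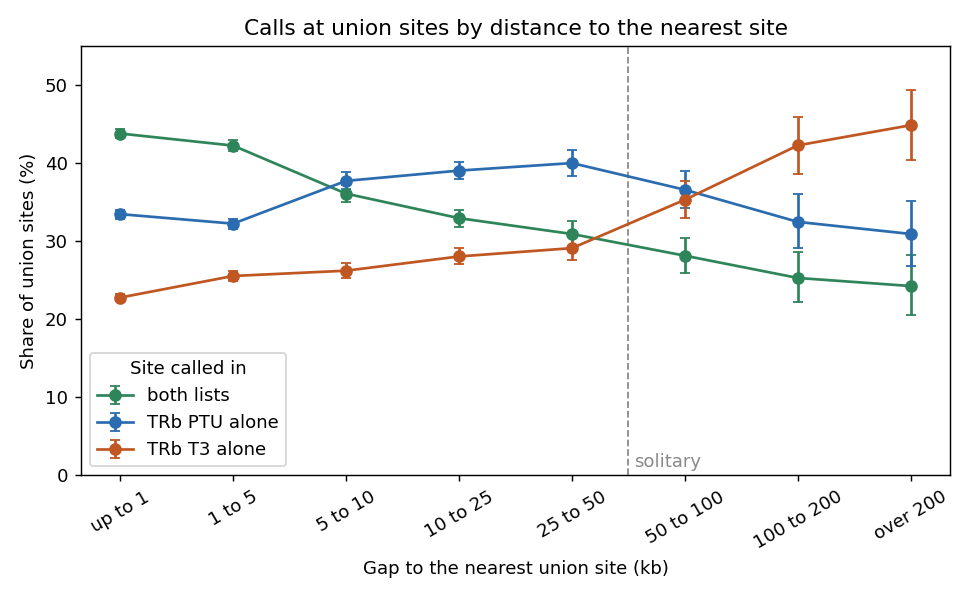
Share of union sites called in both lists, in TRb PTU alone or in TRb T3 alone (vertical axis, %), by the gap to the nearest other union site (horizontal axis, kb). Points are shares and bars exact 95% binomial intervals over sites; right of the dashed line sites are solitary, and the share in both lists falls from 43.8% at gaps up to 1 kb to 24.2% over 200 kb.

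Solitary shared sites were of middle strength, and a smaller share of them than of other shared sites was among the strongest peaks. Their highest TRb PTU peak had a median score percentile of 59.0 (quartiles 35.6 and 78.5), against 68.3 (quartiles 43.3 and 85.8) for the 26656 other shared sites. In TRb T3 the medians were 55.4 (quartiles 31.3 and 77.4) and 62.6 (quartiles 36.3 and 83.1). The interval of the median was 55.9 to 62.0 in TRb PTU and 51.4 to 58.6 in TRb T3, below the medians of the other shared sites in both lists. The gap was widest at the top of the TRb PTU list, where 59 solitary shared sites (7.91%) reached the highest decile against 18.1% of other shared sites. In TRb T3, 77 sites (10.3%) reached the highest decile against 15.4%. By definition the highest decile holds about 10% of a list's peaks. The share of solitary shared sites was close to that in TRb T3 (interval 8.23 to 12.7%). It was lower in TRb PTU, where the interval (6.07 to 10.1%) still took in 10%. The highest 1% of the TRb PTU list took in 3 solitary shared sites (0.402%), against 1.92% of other shared sites, and that of the TRb T3 list took in 7 (0.938%), against 1.64%. Sites in both lists still scored above solitary sites in a single list, whose medians were 29.2 for TRb PTU alone and 31.3 for TRb T3 alone. The same held for sites with neighbours, where the single-list medians were 32.8 for TRb PTU alone and 34.3 for TRb T3 alone. A call in both lists depends on the score, so this difference is a description and not particular to solitary sites.

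**Figure D2:**
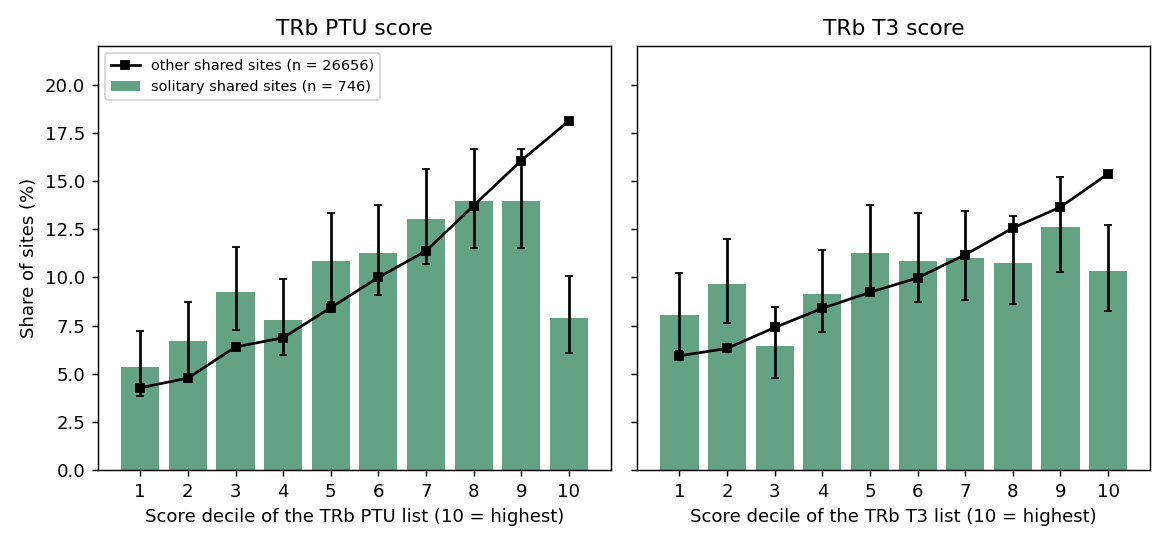
Distribution of solitary shared sites (green bars, with exact 95% binomial intervals) and of other shared sites (black line) over the score deciles of the TRb PTU list (left) and the TRb T3 list (right), as a share of each set (vertical axis, %). Solitary shared sites fall short of the black line in the highest decile, by 7.91 against 18.1% in TRb PTU and 10.3 against 15.4% in TRb T3.

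Solitary and other sites were also set side by side within quartile groups of each list's score, since strong peaks were shared more frequently than weak ones. The share of TRb T3 sites also called in TRb PTU was lower for solitary sites in all 4 groups. It was 26.4% (interval 22.8 to 30.1%) against 40.6% for sites with neighbours in the lowest group. It was 33.8% against 53.3% in the second group and 49.3% against 67.0% in the third. In the highest group it was 69.9% (interval 64.2 to 75.1%) against 85.1% (interval 84.4 to 85.8%). Solitary TRb PTU sites differed less from sites with neighbours. Their share found in TRb T3 was 24.0% (interval 20.5 to 27.8%) against 26.7% in the lowest group, with overlapping intervals. It was 34.5% against 40.5% in the second group. In the third it was 55.7% (interval 50.7 to 60.6%) against 60.1% (interval 59.3 to 61.0%), again with overlapping intervals. In the highest it was 80.8% (interval 75.6 to 85.3%) against 87.4%. Scores still differed within the highest group, with a median of 62.0 for solitary sites against 74.2 for the others in TRb PTU and 72.9 against 79.6 in TRb T3.

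**Figure D3:**
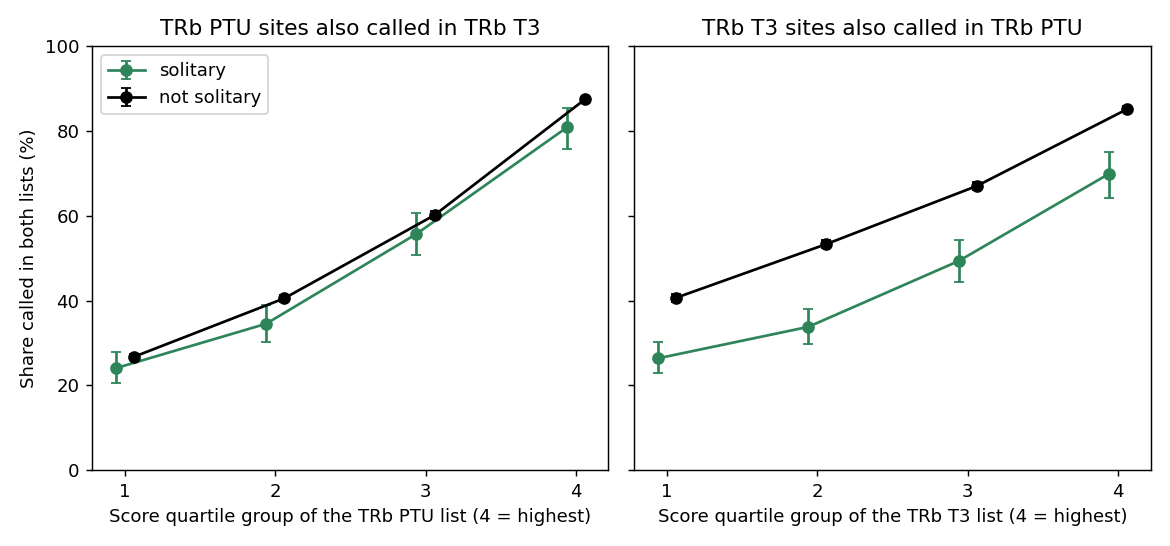
Share of sites of one list that the other list also called (vertical axis, %), by score quartile group of the list named in each panel title (horizontal axis, 4 is the highest), for solitary sites (green) and sites with a neighbour within 50 kb (black). Bars are exact 95% binomial intervals; for TRb T3 sites the green curve lies below the black one throughout, at 69.9 against 85.1% in the highest group, and for TRb PTU sites the curves lie nearer to each other, at 80.8 against 87.4%.

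Of the 746 sites, 737 held exactly 1 peak of each list (98.8%), against 97.3% of other shared sites. Of the rest, 8 held 1 TRb PTU and 2 TRb T3 peaks, and 1 held 2 TRb PTU peaks and 1 TRb T3 peak. The median site was 244 bp wide (quartiles 199 and 334 bp), against 277 bp for other shared sites. Within the one-to-one pairs the median peak was 208 bp wide in TRb PTU against 197 bp in TRb T3, and the TRb PTU peak was the wider in 430 of 737 pairs (58.3%, interval 54.7 to 61.9%), close to the 59.8% of other shared pairs. The peaks of a pair lay close together. Their midpoints were a median of 15.5 bp apart (quartiles 7 and 31.5 bp), 708 of 737 were within 100 bp (96.1%), and in 476 pairs (64.6%) the narrower peak lay wholly inside the wider. An overlap under 50% of the narrower peak occurred in 3 pairs (0.407%). Other shared pairs were much alike, with midpoints a median of 18.5 bp apart. In 65.6% of them the narrower peak lay wholly inside the wider, and 0.324% had an overlap under 50%. Their share within 100 bp was not computed.

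The strongest solitary shared site, by the mean of its percentiles, lay on chromosome 18 at 55815125 to 55815838, with a score of 270.1 in TRb PTU (percentile 99.6) and 196 in TRb T3 (98.5). It was 714 bp wide and its nearest neighbour was 170 kb away. The second lay on chromosome 4 at 130810163 to 130810481, with scores of 188 (98.3) in TRb PTU and 199 (98.6) in TRb T3, and a gap of 230 kb to its nearest neighbour. Both were thus near the top of both lists, with no other call for about 170 kb or more around them.

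Next came a site on chromosome 4 at 8752539 to 8752793, with percentiles of 98.8 in TRb PTU and 97.0 in TRb T3. The site on chromosome 4 at 19238131 to 19239095 reached percentile 93.7 in TRb PTU and 99.9 in TRb T3, and its left neighbour was 2592 kb away. A site on chromosome 16 at 13994224 to 13994480 had percentiles of 95.7 and 97.3. These 3 sites were 255, 965 and 257 bp wide, and the 10 strongest ran from 241 to 965 bp. On chromosome 3, the site at 103434909 to 103435286 stood at 93.2 and 99.8, and the site at 128869711 to 128869951 at 96.8 and 95.9. The site on chromosome 7 at 70480951 to 70481367 had percentiles of 99.3 in TRb PTU and 92.8 in TRb T3 and was the most remote of the 10 highest, with no other union site within 500 kb. The list of 10 ended with chromosome 14 at 23240914 to 23241274 (94.6 and 95.8) and chromosome 2 at 152907634 to 152907926 (97.9 and 92.5). No GFP PTU peak overlapped any of the 10. Their nearest neighbours were 53.3 to 515 kb away.

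Strength in one state went only partly with strength in the other. To compare the lists on equal terms, all 26670 one-to-one pairs on chromosomes 1 to 19 were ranked in each list on a scale of 0 to 100. Across the 737 solitary pairs the ranks had a Spearman correlation of 0.40, against 0.51 across the 25933 other pairs. These are correlations across sites of the same 2 libraries and carry no test. The solitary set holds fewer of the highest scores, and the coefficient fell with the gap in the other shared pairs as well, from 0.55 for gaps up to 1 kb to 0.38 for gaps of 25 to 50 kb. For gaps of 50 to 100 kb it was 0.38, and over 200 kb it was 0.41.

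Of the 737 pairs, 380 ranked higher in TRb T3 (51.6%, interval 47.9 to 55.2%), against 48.9% of all pairs, and the median shift was 1.16 points (interval -1.05 to 3.28). The median size of the shift, in either direction, was 18.6 points, against 17.3 for other shared pairs. Within 25 points of each other in both rankings were 468 pairs (63.5%). This share was not computed for other pairs, so whether it is particular to solitary sites is not known. Large moves occurred in both directions, and more of them were rises than falls. A rise of at least 50 points from TRb PTU to TRb T3 was seen in 52 pairs (7.06%, interval 5.31 to 9.15%), against 5.09% of all pairs, and a fall of that size in 27 pairs (3.66%, interval 2.43 to 5.29%), against 4.17% of all pairs. Pairs in the upper quartile of both rankings numbered 53 (7.19%, interval 5.43 to 9.30%), against 14.3% of all pairs. Pairs in the lower quartile of both numbered 101 (13.7%, interval 11.3 to 16.4%), against 10.6% of all pairs.

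**Figure D4:**
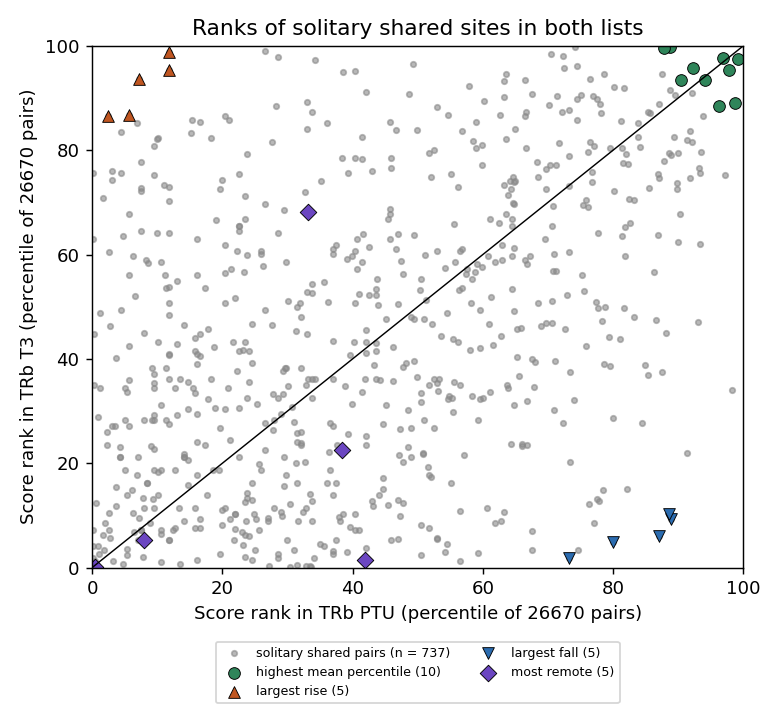
Rank of each one-to-one solitary shared site in TRb PTU (horizontal axis) and TRb T3 (vertical axis), as percentiles among 26670 pairs; each point is 1 site and the line marks equal ranks. The 10 sites with the highest mean percentile sit in the upper right corner, and the 5 largest rises (up to 86.9 points) and falls (up to 81.0 points) in the other corners.

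The site with the largest rise lay on chromosome 14 at 73326309 to 73326686. Its score was 10.2 in TRb PTU (rank 11.8) and 232 in TRb T3 (rank 98.7), a rise of 86.9 points. The site on chromosome 7 at 120587036 to 120587371 went from a score of 8.55 (rank 7.25) to 141 (rank 93.6). On chromosome 17, the site at 8178660 to 8178966 went from 6.01 (rank 2.42) to 97.6 (rank 86.6). These sites were near the bottom of the TRb PTU pairs and above rank 86 in TRb T3. The remaining rises were of 83.6 points, at 24856006 to 24856420 of chromosome 1, and of 81.1 points, at 15124188 to 15124398 of chromosome 8. In the 5 sites the peak midpoints of the lists were 5.5 to 83 bp apart, so the same position was called at very different ranks.

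The largest fall, by 81.0 points, was on chromosome 15 at 37532426 to 37532622, where the score was 103 in TRb PTU (rank 87.0) and 7.93 in TRb T3 (rank 6.02). On chromosome 1, the site at 172624894 to 172625238 fell by 79.6 points, from rank 88.9 to rank 9.28. The site on chromosome 13 at 45582075 to 45582308 fell by 78.3 points. These sites ranked above 87 in TRb PTU and near 10 or below in TRb T3. The site on chromosome 17 at 70021970 to 70022199 followed, from rank 79.9 to rank 4.92, and then a site of chromosome 6, at 12090517 to 12090848, which fell by 71.5 points. Whether any of these shifts exceeds the spread between animals was not tested, since each state had 1 library.

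Most solitary shared sites were only moderately isolated. The median gap to the nearest neighbour was 87.4 kb (quartiles 62.2 and 152 kb), 303 sites had no neighbour within 100 kb, 120 none within 200 kb, and 36 none within 500 kb. A median of 18 other union sites (quartiles 8 and 32) lay within 500 kb on either side, counted between midpoints. In all, 78 sites had 50 or more others within 500 kb. Score hardly went with isolation among the one-to-one sites, with a Spearman correlation between gap and score of -0.03 in each list. Just inside the limit were sites on chromosome 18 at 84545936 to 84546322, chromosome 5 at 139575447 to 139575703 and chromosome 8 at 70474694 to 70474858, with gaps of 50.01, 50.02 and 50.07 kb. The first shared sites outside it were on chromosome 5 at 103720336 to 103720551, chromosome 7 at 72664900 to 72665068 and chromosome 2 at 6516878 to 6517059, with gaps of 49.98, 49.94 and 49.91 kb. The mean percentiles of the 3 inside were 64.0, 70.8 and 16.2, and those of the 3 outside were 31.2, 18.3 and 73.2.

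The 5 most remote sites each had about 1369 kb or more of sequence without another call on both sides, and none of them was above percentile 77.4 in either list. The most remote, on chromosome 5 at 60434073 to 60434359, had a gap of 2001 kb and percentiles of 51.8 in TRb PTU and 77.4 in TRb T3. It overlapped a GFP PTU peak at 60434082 to 60434256 with a score of 28.1, the third highest of the 107 peaks of that list. The next, on chromosome 7 at 68803106 to 68803279, had a gap of 1678 kb and percentiles of 17.3 and 8.62. The third, on chromosome 12 at 98299659 to 98299954, was near the bottom of both lists (1.15 and 0.22) and also overlapped a GFP PTU peak, with a score of 8.95. On chromosome 8 the site at 103380225 to 103380415 had percentiles of 60.3 in TRb PTU and 2.32 in TRb T3. The fifth, chromosome 15 from 48730119 to 48730415, had 57.1 and 32.9.

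GFP PTU peaks, which mark signal captured without tagged TRβ1, overlapped 5 of the 746 sites (0.670%, interval 0.218 to 1.56%). The share rests on few sites and was 1.32% with a limit of 100 kb, 0.350% with peaks of the upper scores alone and 0.391% with lists of equal length. Over all shared sites the share was 0.161%, and over the other shared sites 39 of 26656 (0.146%). Among solitary sites of a single list it was 1 of 964 in TRb PTU alone and 0 of 1084 in TRb T3 alone, the latter with an upper limit of 0.340%. There was no GFP library from mice given T3, so capture without tagged TRβ1 was not measured in that state. Beside the sites on chromosomes 5 and 12 named above, GFP PTU peaks lay at chromosome 6, 10136314 to 10136521 (GFP score 11.5), and at chromosome 14, 104736101 to 104736316 (9.14). The fifth site, on chromosome 1 at 24618366 to 24623023, held 2 GFP peaks with a highest score of 3.31. It was also the widest solitary shared site, at 4658 bp, with a percentile of 0.35 in TRb PTU and 83.3 in TRb T3. All 5 sites at GFP PTU peaks, this one among them, were called in all 3 lists and their sequence was not examined here. Their percentiles may therefore not measure TRβ1 binding. The second widest, 1532 bp on chromosome 12 at 114662245 to 114663776, went from 7.30 in TRb PTU to 99.4 in TRb T3. The third widest, 1037 bp on chromosome 15 at 37890327 to 37891363, had 76.7 and 52.5, and neither of the last 2 met a GFP peak.

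Solitary shared sites occurred on all 19 chromosomes, from 14 on chromosome 19 to 74 on chromosome 1. As a share of a chromosome's shared sites they were most frequent on chromosome 13 (4.43%, interval 3.31 to 5.80%) and chromosome 1 (4.27%, interval 3.37 to 5.34%), and least frequent on chromosome 19 (1.35%, interval 0.742 to 2.26%). This share was lower on chromosomes with more union sites per Mb, with a Spearman correlation of -0.65 over 19 chromosomes. The rule itself selects against dense stretches of union sites, so a lower solitary share on denser chromosomes is built into the selection. The number of shared sites, by which the share is divided, also enters the number of union sites, so the values are not independent. Per 100 Mb between the first and last site, there were 42.7 solitary shared sites on chromosome 13 and 21.0 on chromosome 16, and this number went little with the density of union sites (Spearman correlation -0.15). Chromosomes 11 and 19, both near 42.9 union sites per Mb, had 33.7 and 24.0. The share of a chromosome's solitary sites that were in both lists ran from 18.3% on chromosome 18 (interval 11.4 to 27.1%) to 38.5% on chromosome 7 (interval 30.6 to 46.9%).

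**Figure D5:**
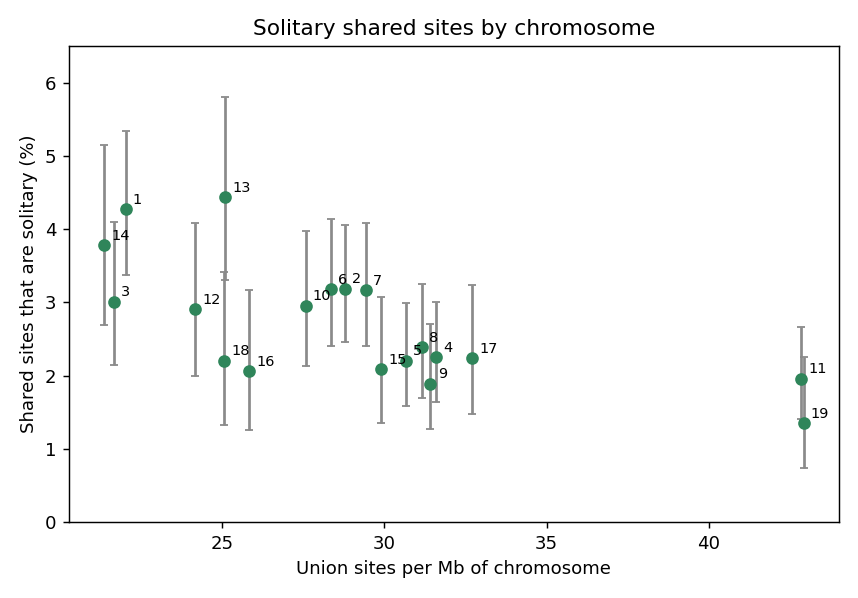
Share of each chromosome's shared sites that are solitary (vertical axis, %) against its number of union sites per Mb (horizontal axis); each point is 1 of chromosomes 1 to 19, numbered, with its exact 95% binomial interval. The share runs from 1.35% on chromosome 19, among the 2 densest chromosomes, to 4.43% on chromosome 13.

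The sites flanking a solitary shared site were called in both lists in a smaller share, and in TRb T3 alone in a larger share, than union sites at large. Of 1489 flanking sites, 33.0% were called in both lists (interval 30.6 to 35.4%), 34.4% in TRb PTU alone and 32.6% in TRb T3 alone (interval 30.3 to 35.1%). Over all union sites the shares were 40.0%, 34.5% and 25.5%. By the rule, a flanking site has a gap of over 50 kb toward the solitary site. Among all union sites the share in both lists was also lower at larger gaps, at 43.8% within 1 kb and 30.9% for 25 to 50 kb. Flanking sites were not compared with union sites of like gap, so the difference may come from the selection. Beside solitary sites in TRb T3 alone, 27.0% of flanking sites were called in both lists (interval 25.2 to 29.0%) and 41.6% in TRb T3 alone. Beside solitary sites in TRb PTU alone, 31.3% were called in both lists and 37.9% in TRb PTU alone. Flanking sites are counted once for each solitary site they flank, so some enter more than once.

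Most solitary shared sites had no other solitary shared site next to them, but some followed each other. Such sites made up 1.09% of all union sites, so a next site of another kind is the usual case. In 597 cases the next site on both sides was not a solitary shared site, 58 times 2 such sites followed each other, and 11 times 3 did. On chromosome 2, the 3 sites between 105843380 and 106493224 were of middle to high strength in both lists, with percentiles of 71.2 to 91.9 in TRb PTU and 60.9 to 94.8 in TRb T3. On chromosome 6, 3 sites lay between 123446088 and 123563720, separated by gaps of 59.3 and 57.1 kb and all 381 to 404 bp wide. The outer sites of this trio had percentiles of 94.1 and 86.9 in TRb PTU and 93.9 and 93.3 in TRb T3, and the middle one had 21.1 and 55.5. On chromosome 14, the 3 sites between 87484839 and 87816261 moved in different directions. The first rose by 71.3 rank points and the second by 47.6, and the third fell by 12.8. These trios were chosen for mention after their values were seen.

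In windows of 10 Mb, the most solitary shared sites were on chromosome 11 from 20000001 to 30000000, with 11 such sites among 87 shared and 225 union sites. The median over 258 windows was 2, and 238 windows held at least 1. Scores in this window varied between the sites and between the lists. Its strongest site, at 22094681 to 22095036, had percentiles of 90.9 in TRb PTU and 86.8 in TRb T3, with midpoints 1 bp apart. The site at 29925960 to 29926348 had 74.9 in TRb PTU and 4.65 in TRb T3. The windows were examined after the data were seen.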

How the data were processed

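ChIP-seq of mouse liver was deposited as 1 peak list per ChIP library. The submitters' processing notes name Bowtie, SAMtools, MACS2 and the build mm9; their versions, settings, control library and filters were not given in the sources used here. In the files, the deposited peak score is the authors' peak caller's value, and the deposited start and end are given here 1-based. The 3 input samples were not analysed here. Gene expression markers of liver could not be checked in peak lists.

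Union sites came from peaks sharing at least 1 bp on chromosomes 1 to 19 (695 TRb PTU and 686 TRb T3 peaks lay elsewhere). A site's score is that of its highest peak in a list, as a percentile of all peaks of the deposited list with ties averaged. Shares have exact (Clopper-Pearson) 95% intervals, medians exact order-statistic intervals. The members, lists and rules for named sites were chosen with earlier results of these data known. Sites named are the 10 with the highest mean percentile, the 5 largest rank rises and falls, the 5 most remote, the 3 widest, the 3 on each side of the 50 kb limit, and up to 5 at GFP peaks. The code was tested on simulated data before use. Alternatives were other isolation distances, peaks of the upper scores alone, lists cut to equal length, GFP sites taken out, merging within 200 bp and chromosome X. Gene location, gene lists and receptor motifs were planned but could not be run, as no mm9 genome or annotation was used here. Python 3.11.15, numpy 2.4.6, pandas 2.3.3, scipy 1.17.1 and matplotlib 3.10.9 were used.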

Additional observations from a re-analysis of the deposited data

How the results depend on the processing

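No paired analysis was possible because there was only 1 library for each condition. An isolation distance of 25 kb gave 1719 solitary shared sites, and 28.9% of solitary sites were then shared. A distance of 100 kb gave 303 sites and 24.9%, with 388 solitary sites in TRb PTU alone and 528 in TRb T3 alone. At 25 kb the single-list sites were 2223 in TRb PTU alone and 2000 in TRb T3 alone, the reverse of the order at 50 kb (964 and 1084). At 100 kb, 63.8% of solitary TRb T3 sites of the highest score quartile were found in TRb PTU (69.9% at 50 kb). Keeping only peaks that scored no lower than their list's median widened the median site to 290.0 bp (244 bp with all peaks); the cause was not tested. It also reversed the order of the single-list classes, with 1143 in TRb PTU alone and 1025 in TRb T3 alone. The GFP overlap of the sites (0.670%) was 1.32% at 100 kb, 0.350% with that score filter and 0.391% with equal numbers of peaks, all within its interval. Removing peaks at GFP PTU sites left a GFP overlap of 0 by construction. Equal numbers of peaks, merging within 200 bp, chromosome X, and leaving out 22 successive solitary sites in TRb PTU alone on chromosome 14 (3333106 to 8490648, chosen after seeing the data) kept each of the 12 results within 1.5 times or within its interval. Unknown depth limits every comparison of the number of calls.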
